A study of Mus musculus with 24 samples.

Results

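The mouse Hoxa cluster lies on chromosome 6 and holds a row of homeobox genes that are all read from the reverse strand. In embryos the genes are switched on in the order in which they lie, and their proteins give cells their position along the head-to-tail axis. Hox patterns are kept in the adult gut, where they differ between segments. Cdx2 is a homeobox transcription factor that specifies the intestinal epithelium, and Cdx proteins are known upstream regulators of Hox genes in the posterior embryo. This report follows Cdx2 binding across Hoxa2, Hoxa3, Hoxa4, Hoxa5, Hoxa6, Hoxa7, Hoxa9, Hoxa10, Hoxa11 and Hoxa13.

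The assay was ChIPmentation with an antibody against Cdx2, in which immunoprecipitated chromatin receives its sequencing adapters from a transposase while it sits on beads. The organoids, cultures of colon epithelium grown in gel, were derived from the first or the last stretch of the colon (proximal or distal) of 3 young adult female mice that were heterozygous for a Cre-inducible BrafV600E allele and for a tdTomato reporter. All groups shared this genotype, in which normal Braf is made until Cre is supplied, and no Cre treatment is named for these libraries. Every culture had spent 4 months in WENR-plus medium, which supplies Wnt3a, EGF, Noggin and R-spondin. WENR-minus organoids were then plated for 2 days in WENR-plus medium and deprived of all of these factors for 3 days. Colon site and medium gave 4 groups of 3 peak lists, 12 in all.

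The members were Cdx2 peaks whose summit lay in the body of one of the 10 genes or up to 20 kb to either side, by GENCODE vM21 on mm10. They numbered 159 peaks. Peaks that overlapped between lists were merged into regions, which gave 26 Hoxa regions of 61454 in the genome, in a window of 138 kb (chr6:52142417-52280880). The lists differed in length, from 11409 to 42192 peaks in the proximal groups and from 5608 to 21040 in the distal groups, and they held no read counts or expression values, so the labelled colon site could not be checked against marker genes. A missing call can therefore reflect a shallower list, and the part of list length in the differences below was not tested beyond the lists cut to equal length. The strength of a peak is given as the fold enrichment that the peak caller MACS2 set against the input, and as the percentile of that fold among all peaks of the same list.

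The sequences under the regions that carried the results are shown first. Cdx2 is known to bind an AT-rich site, and the letters searched on both strands were TTTATGA as the first form, with TTTATGG as a further form, then TTTATTA as another and TTTATTG as the last. Each line gives the match closest to the middle summit of a region in GRCm38, with 11 bases to either side, 5′ to 3′ on the strand of the match, and with the match in capitals. The first 4 belonged to the regions called in all 12 lists, the fifth to the region called in proximal lists alone, the sixth to the region with the clearest distal balance in lists of equal length, and the last to the strongest region beyond Hoxa13.
Hoxa3 start region, chr6:52182971-52182999, forward strand: caggccagtaaTTTATGGctcttttacaa
Hoxa4 region, chr6:52190957-52190985, forward strand: gggcaattaaaTTTATGGgggctataatt
Hoxa4-Hoxa5 region, chr6:52201010-52201038, reverse strand: ttaaagtaagtTTTATGGttttggggagt
Hoxa7 region, chr6:52218792-52218820, reverse strand: gtgaagtcgggTTTATGAtgtgcaatcga
Hoxa3 intron region, chr6:52174230-52174258, reverse strand: atctacatagaTTTATTGttatagctttt
Hoxa6-Hoxa7 region, chr6:52213418-52213446, reverse strand: tgcaatacaacTTTATGAgttgttcggcc
Hoxa13 flank region, chr6:52270931-52270959, forward strand: tttggaatcttTTTATGAcctttgatgtg

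A match lay within 50 bp of the middle summit in 20 of the 26 Hoxa regions, or 76.9%, against 60.4% of all regions. It was present in all 14 Hoxa regions that were called in at least 6 lists, where the share over the genome was 71.1%. The summits of single lists varied more. A match lay within 50 bp of them in all 12 lists at the Hoxa3 start and Hoxa7 regions. At the Hoxa4-Hoxa5 region this held in 7 of 12 lists, and at chr6:52220446-52220842 in 2 of 7. Of the 12 Hoxa regions called in fewer lists, 6 held one. The search windows placed 1000 bp to either side of the summits gave a share of 1.92% for Hoxa and 11.7% for all regions. The window held 134 copies of the letters in all, and 49 of them lay inside the 26 regions, so most copies in the cluster had no peak called over them.

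Binding was spread unevenly along the cluster. Of the 26 regions, 14 were called in at least 6 lists, 5 in 2 to 5 lists and 7 in 1 list, a share of single calls below the 42.2% of all regions. The regions called in at least 6 lists ran from the flank of Hoxa2 to the 3′ end of Hoxa9 and resumed beyond Hoxa13. Between them, over Hoxa10, Hoxa11 and Hoxa13, posterior genes that pattern limbs, the urogenital tract and the hindgut, no region was called in more than 2 lists. The plot of percentiles along the cluster shows this gap.

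**Figure D1:**
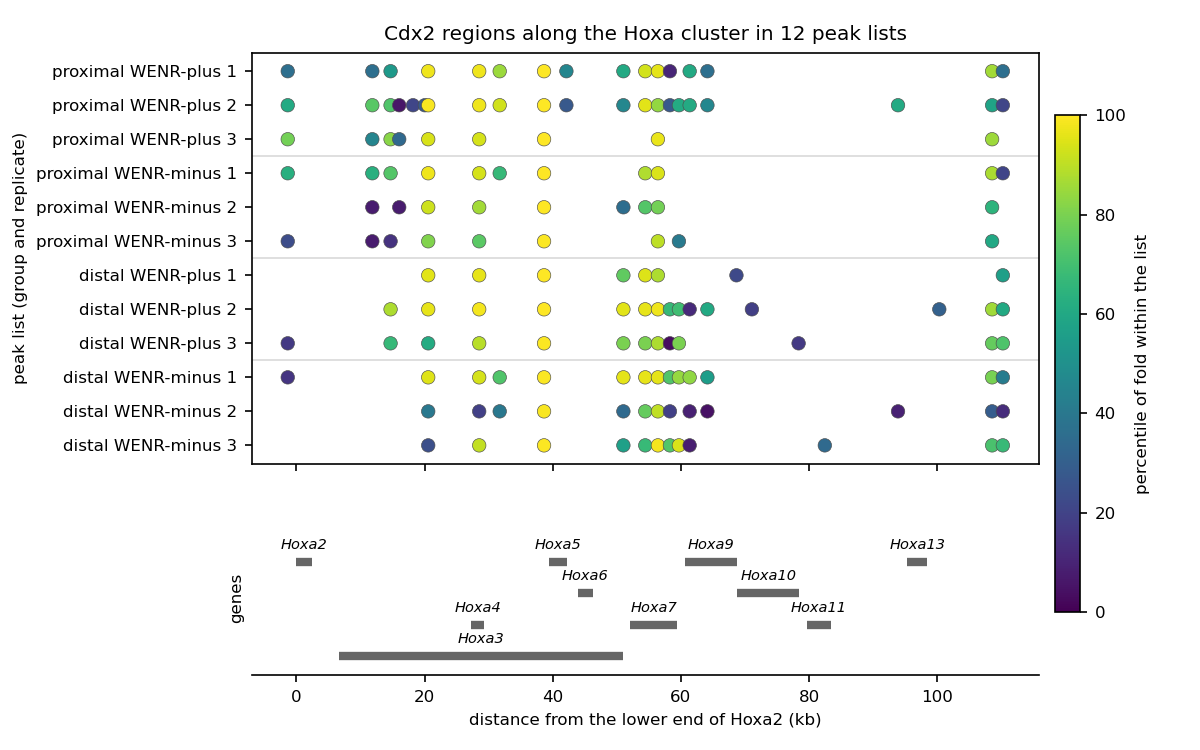
Each point is a Hoxa region called in 1 of the 12 peak lists (rows), placed by its distance in kb from the lower end of Hoxa2 and coloured by the percentile of its fold within that list, with gene bodies drawn below. The columns of points at 20.6, 28.5, 38.6 and 56.4 kb are complete, and few points are scattered over Hoxa10 and Hoxa11 and close beside Hoxa13.

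Regions called in all 12 lists numbered 4 in the Hoxa window, and 3.38% of all regions were called as often. They lay at Hoxa3, Hoxa4, between Hoxa4 and Hoxa5, and at Hoxa7. Hoxa3 and Hoxa4 are anterior members of the cluster, Hoxa5 acts in gut and lung development, and Hoxa7 lies in its middle.

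The strongest lay between the bodies of Hoxa4 and Hoxa5 (chr6:52199573-52201787), inside an intron of the long Hoxa3 transcript. Its middle summit lay 67 bp from an annotated start of the antisense gene Hoxaas3. The region lay 3530 bp from the Hoxa5 start, beyond the 3′ end of that gene. Its fold was 35.8, 43.0 and 44.2 in the proximal WENR-plus lists and 39.8, 33.6 and 30.4 in the proximal WENR-minus lists. It was 27.8, 28.9 and 26.0 in the distal WENR-plus lists and 19.4, 18.1 and 23.4 in the distal WENR-minus lists. All 6 proximal values were above all 6 distal values, as at 11.8% of the 2079 regions called in every list. Once each list was centred on its own median over these regions, the Hoxa4-Hoxa5 region overlapped between the colon sites, and 3.61% of the regions still had every proximal list above every distal list. Its percentile stayed between 99.14 and 99.86 in the 12 lists, so it was among the strongest peaks of each. A smaller summit about 1 kb away was called as a separate peak in 8 lists, and in the other 4, which were all proximal, a single wide peak covered both.

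The Hoxa3 start region (chr6:52182542-52183456) lay in an intron of the long Hoxa3 transcript, 870 bp from the nearest Hoxa3 start and 125 bp from an annotated start of Gm29430. Its fold was 15.8, 23.5 and 15.7 in the proximal WENR-plus lists and 16.7, 12.0 and 9.26 in the proximal WENR-minus lists. In the distal lists it was 12.8, 13.8 and 7.25 with the factors and 11.3, 5.52 and 4.89 without them. The 2 lowest values belonged to distal WENR-minus lists, and the groups overlapped. Its percentile ran from 24.1 to 99.1.

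The Hoxa4 region (chr6:52190607-52191277) lay in the intron of Hoxa4, 813 bp from its start. Its fold was 15.8, 16.6 and 15.7 in the proximal WENR-plus lists and 11.8, 9.55 and 8.15 in the proximal WENR-minus lists. The distal lists gave 13.7, 16.9 and 10.8 with the factors and 10.3, 4.73 and 10.8 without them. In proximal organoids every WENR-plus list was above every WENR-minus list, as at 13.2% of the 6005 regions called in all 6 proximal lists, and at 7.01% once each list was centred on its median, where the Hoxa4 region was the only Hoxa region of 6 with this order. In distal organoids the media met at about the same value before centring. Once centred, every distal WENR-plus list was above every distal WENR-minus list at the Hoxa4 region. The Hoxa4-Hoxa5 region had this order in distal organoids before and after centring. These were 2 of 7 Hoxa regions after centring, against 7.81% of the 2445 regions called in all 6 distal lists, and 7.93% before centring.

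The Hoxa7 region (chr6:52218388-52219296) lay inside Hoxa7, 111 bp from an annotated start of the gene. Its fold was 13.3, 8.10 and 19.2 in the proximal WENR-plus lists and 12.4, 8.14 and 11.8 in the proximal WENR-minus lists. It was 9.70, 15.5 and 10.4 in the distal WENR-plus lists and 11.9, 9.72 and 18.2 in the distal WENR-minus lists. The 4 groups covered one another.

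**Figure D2:**
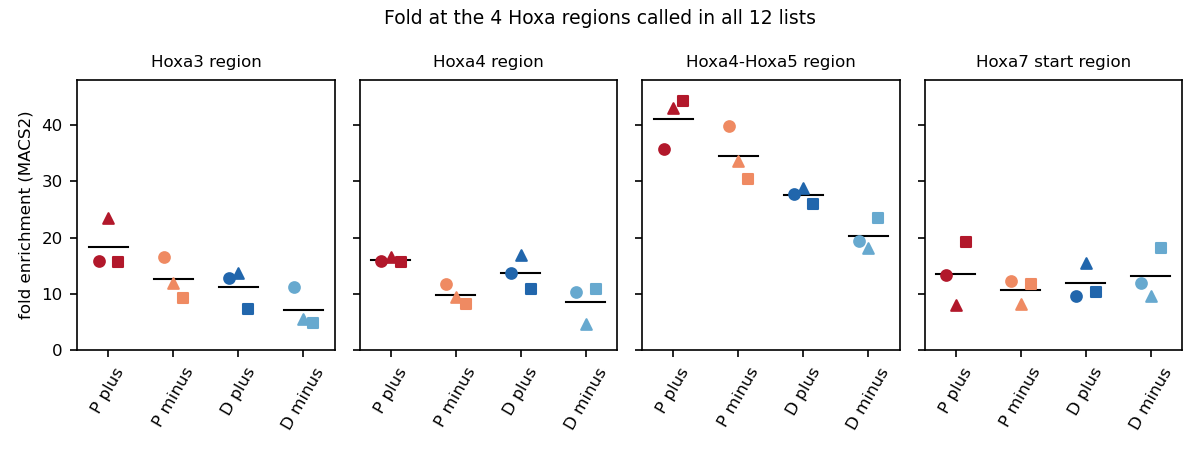
Fold enrichment (linear axis from 0) at the 4 Hoxa regions called in all 12 lists, by group (P proximal, D distal, plus and minus for the medium), with circles, triangles and squares for replicates 1, 2 and 3 and a line at the mean of 3. At the Hoxa4-Hoxa5 region the proximal points sit between 30.4 and 44.2 and the distal points between 18.1 and 28.9, and the Hoxa7 points overlap across groups.

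The folds were compared with limma on log2 values centred on each list's median, over all regions called in the 6 lists of a comparison, with adjusted p-values over all of them. A region that was missing in a list has no fold there and could not enter. Between proximal and distal WENR-plus lists 2.78% of 2911 regions passed an adjusted p of 0.05, and none of the 4 Hoxa regions did. In WENR-minus lists 3.45% of 3305 regions passed, and none of 5 Hoxa regions did. The largest proximal excess was 0.57 ± 0.29 (log2, SE) at the Hoxa3 start region in WENR-minus medium, with a limma adjusted p of 0.301. At the Hoxa4-Hoxa5 region the difference was 0.47 ± 0.22 in WENR-minus medium (limma adjusted p = 0.254) and 0.13 ± 0.23 in WENR-plus medium (limma adjusted p = 0.797). The Hoxa7 region went the other way, at -0.57 ± 0.27 in WENR-minus medium (limma adjusted p = 0.265). None of these differences could be separated from the spread between lists with 3 lists in each group. With the replicate number as a block, 12.5% of the regions passed with the factors and 8.93% without them, and no Hoxa region did.

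Withdrawal of the factors was tested in the same way. In proximal organoids 0.0% of 6005 regions passed in limma, with 583 under an unadjusted p of 0.05, and in distal organoids 0.0409% of 2445 regions passed. No Hoxa region was among them, of 6 and 7 tested. The largest log2 difference among Hoxa regions was at the Hoxa4 region at both sites, where the fold with the factors exceeded that without them by 0.56 ± 0.23 in proximal (limma adjusted p = 0.455) and 0.71 ± 0.29 in distal organoids (limma adjusted p = 0.423). Proximal lists of the same replicate number were taken as pairs, although those of replicate 1 correlated more with replicate 2 than with each other. With the number as a block 0.899% of the 6005 regions passed in limma (54 regions), none of them among the 6 Hoxa regions. The blocked difference at the Hoxa4 region was 0.56 ± 0.20 (limma adjusted p = 0.184). In distal organoids the block gave 1.51% and no Hoxa region. The interaction of site and medium was not past the threshold at any of the 2079 regions tested for it in limma, with 89 under an unadjusted p of 0.05, and no Hoxa region was among those.

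The remaining regions were called in some lists only. The Hoxa3 intron region (chr6:52174019-52174582) was called in all 6 proximal lists and no distal list, which held for 1.04% of all regions and for this Hoxa region alone. Its fold was 4.75, 6.58 and 6.19 in the proximal WENR-plus lists and 5.64, 4.25 and 4.07 in the proximal WENR-minus lists. These were weak peaks, at percentiles from 7.48 to 73.8 of their lists. By Fisher's exact test (6 against 6 lists, two-sided) the region had p = 0.00216 before and 0.114 after adjustment over 35518 regions. The 2 media of a site may come from the same culture, which would make this p too small. An exact test of the calls within replicate numbers gave p = 0.00926 before and 0.488 after adjustment. No region of the genome passed after adjustment, while 4.96% had an unadjusted p under 0.05 with more proximal lists. A complete split of 6 against 6 lists gives the smallest Fisher's p possible, 0.00216, and did not pass either. Among the 5608 peaks of each list with the lowest q-values, the length of the shortest list, the region was called in none. Not every distal list was shorter than every proximal list. Distal WENR-minus replicate 1, with 21040 peaks, lacked the region, and proximal WENR-minus replicate 3, with 11409 peaks, held it. The part of list length in this split was not tested further. Within a medium, the same region was the Hoxa case of all 3 proximal lists and no distal list in WENR-plus medium (4.69% of all regions) and in WENR-minus medium (2.04%).

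Close to it, the Hoxa3 region at chr6:52176917-52177342, in the same intron, was called in 5 proximal and 2 distal lists. Its fold was 5.39, 6.53 and 10.2 in the proximal WENR-plus lists, 6.45 and 4.44 in 2 proximal WENR-minus lists, and 9.77 and 7.68 in 2 distal WENR-plus lists. The distal WENR-minus lists lacked it. In lists of equal length it was called in 1 proximal and 2 distal lists. The region nearest Hoxa2 (chr6:52160809-52161362), 3760 bp from the Hoxa2 start and inside the noncoding gene Hotairm1, was called in 5 proximal and 2 distal lists as well. Its fold was 4.75, 5.64 and 9.39 in the proximal WENR-plus lists, 5.64 and 4.81 in 2 proximal WENR-minus lists, 5.12 in 1 distal WENR-plus list and 4.20 in 1 distal WENR-minus list. In lists of equal length it was called in 1 proximal and 1 distal list, so the proximal excess at these 3 regions was not seen in lists of equal length. Hoxa2, which patterns the hindbrain and branchial arches, had no peak in its body in any list.

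The Hoxa6-Hoxa7 region (chr6:52213191-52213693) lay 99 bp from the start of the long Hoxa3 transcript, which begins there, and in an exon of the antisense gene Hoxaas3. It was called in all 6 distal and in 3 proximal lists. The fold was 7.93, 12.9 and 8.96 in the distal WENR-plus lists, 11.9, 5.27 and 6.29 in the distal WENR-minus lists, 5.70 and 5.02 in 2 proximal WENR-plus lists and 5.31 in 1 proximal WENR-minus list. In lists of equal length it was called in 6 distal and no proximal lists. Fisher's exact p was 0.00216 before adjustment, again the lowest possible, and 0.113 after it over 10358 regions. In those lists 1.53% of regions had an unadjusted p under 0.05 with more distal lists. Without replicate 3 in each group, the region could be tested for fold in WENR-plus medium and was lower in proximal lists by -1.33 ± 0.31 (log2, SE; limma adjusted p = 0.0126, with 2 lists in each group). It was the only Hoxa region called of 7 tested there, and 4.42% of 5221 regions were called.

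The neighbouring region in Hoxa7 (chr6:52216463-52217158), 607 bp from a Hoxa7 start, was called in 10 lists and was missing from replicate 3 of both proximal groups. Its fold was 11.1 and 13.5 in 2 proximal WENR-plus lists, 9.13 and 7.43 in 2 proximal WENR-minus lists, 12.3, 13.8 and 8.96 in the distal WENR-plus lists and 12.3, 7.49 and 6.99 in the distal WENR-minus lists. Where it was called, the sites covered the same range.

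A further Hoxa7 region (chr6:52220446-52220842) was called in all 3 distal and no proximal WENR-minus lists, as was one in the 3′ untranslated part of Hoxa9 (chr6:52223301-52223957). That pattern held for 0.334% of all regions. The Hoxa7 region had a fold of 6.46, 4.73 and 7.46 in the distal WENR-minus lists, 7.11 and 4.17 in 2 distal WENR-plus lists, and 3.89 and 4.39 in 2 proximal WENR-plus lists. The Hoxa9 region had 7.72, 4.34 and 4.19 in the distal WENR-minus lists, 4.47 in 1 distal WENR-plus list, and 5.70 and 5.64 in 2 proximal WENR-plus lists. Their percentiles ran from 3.22 to 73.0 and from 8.34 to 83.4 of the lists that held them, and proximal WENR-plus lists were among these, so they were not confined to distal organoids.

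Just upstream of Hoxa7, 247 bp from its start, a region in no gene body (chr6:52221814-52222476) was called in 4 distal and 2 proximal lists. Its fold was 7.39 and 8.96 in 2 distal WENR-plus lists, 7.75 and 12.6 in 2 distal WENR-minus lists, 5.64 in 1 proximal WENR-plus list and 5.55 in 1 proximal WENR-minus list. In lists of equal length it was called in 4 distal and no proximal lists, with Fisher's exact p = 0.0606 before and 0.645 after adjustment. In those lists 33.8% of the 10358 regions called in at least 2 had more distal lists.

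Beyond Hoxa13, the most posterior gene, the Hoxa13 flank region (chr6:52270629-52271273), 10083 bp from the Hoxa13 start, was called in 11 lists. Its fold was 8.56, 5.5 and 11 in the proximal WENR-plus lists, 8.87, 6.72 and 6.66 in the proximal WENR-minus lists, 9.33 and 8.53 in 2 distal WENR-plus lists and 7.1, 5.13 and 7.34 in the distal WENR-minus lists. A second region next to it (chr6:52272376-52272844) was called in all 6 distal and in 3 proximal lists. Its fold was 6.61, 6.66 and 8.11 in the distal WENR-plus lists, 4.94, 4.36 and 6.99 in the distal WENR-minus lists, 4.75 and 4.08 in 2 proximal WENR-plus lists and 4.03 in 1 proximal WENR-minus list. Every distal value but 1 was above every proximal value that was called, and the share of all regions with such an order was not counted. Proximal lists without a call have no fold, so limma could not compare the sites here with all replicates. Fisher's exact test of the calls gave p = 0.182 before and 0.810 after adjustment.

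The outermost member region lay 11.8 kb from a gene body. The nearest well-called region that the rule left out on that side lay at chr6:52298495-52299389, 37.6 kb from a member body. It was called in 11 lists at a median percentile of 82.9. On the Hoxa2 side the nearest region outside the window lay 71.0 kb from a member body and was called in all 12 lists.

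By gene, Hoxa3, Hoxa4 and Hoxa7 had a peak in the body and within 1 kb of a start in all 12 lists. The annotated body of Hoxa3 covers those of Hoxa4, Hoxa5 and Hoxa6, so its count includes peaks in them. The share of all genes with such a peak was not counted. Hoxa9, which acts in the axial skeleton and in blood formation, had one in its body in 7 lists. Hoxa5 had one within 1 kb of a start in 2 lists, both proximal WENR-plus, and Hoxa6 had none. Hoxa10 had 1 in its body in 2 lists, Hoxa11 in 1 list and Hoxa13 in none. The regions called in 1 list over Hoxa10 and Hoxa11 and beside Hoxa13 were called in distal lists, at percentiles from 17.1 to 34.0 of their lists.

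Over the 19 Hoxa regions called in at least 2 lists, 7 were called in more distal than proximal lists, 7 in more proximal and 5 in equal numbers. Across the genome 5.89% of such regions had more distal lists and 76.3% had more proximal lists. In WENR-plus medium alone the Hoxa count was 4 of 18 and in WENR-minus medium 8 of 16, against 2.66% and 10.6% of all regions. In lists of equal length 6 of 13 Hoxa regions and 33.8% of all regions had more distal lists. Of the 7 regions with more proximal lists, 6 lay between the flank of Hoxa2 and Hoxa5 and 1 was the Hoxa13 flank region, and all 7 with more distal lists lay from the start of the long Hoxa3 transcript on. The difference in lists fell with the position along the cluster (Pearson's r = -0.60 and Spearman's rho = -0.67 over 19 regions). In lists of equal length the values were -0.36 and -0.52 over 13 regions. The regions share the same 12 lists and are not independent, and these coefficients are given as a description.

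**Figure D3:**
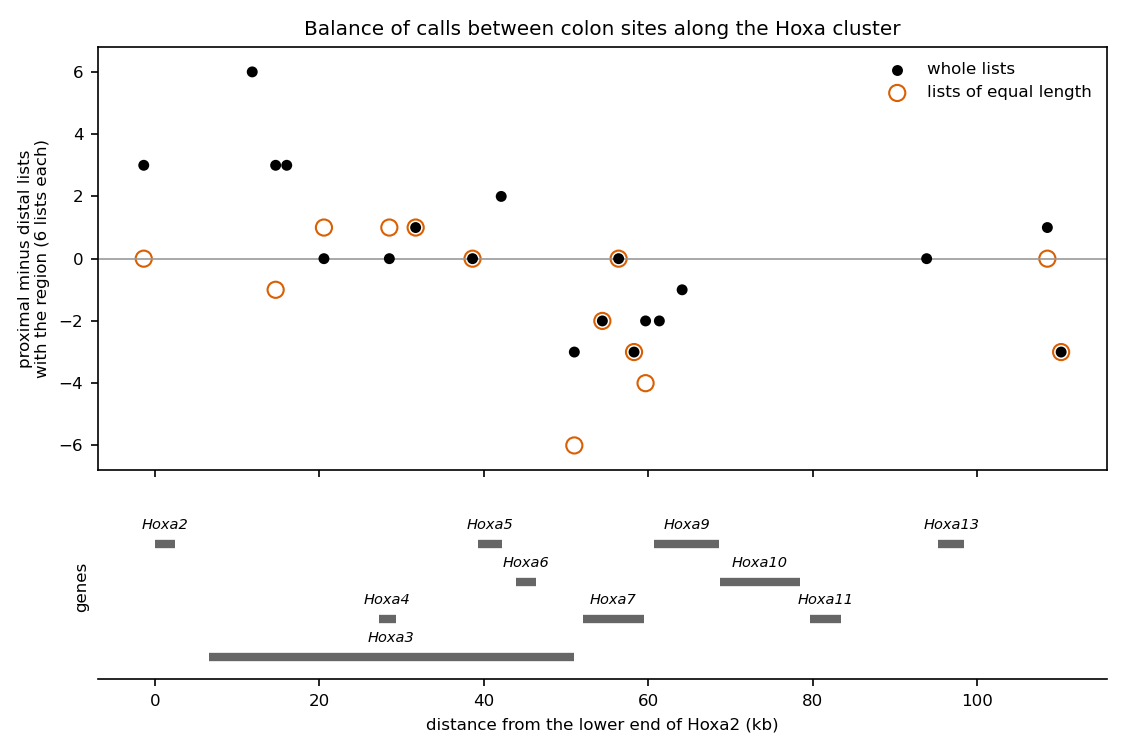
Number of proximal minus distal lists (6 each) that held each Hoxa region called in at least 2 lists, against the distance in kb from the lower end of Hoxa2, for whole lists (black) and for lists cut to the length of the shortest (open orange), with gene bodies below. The values run from 6 at the Hoxa3 intron region to -3 around Hoxa7 and beyond Hoxa13, and to -6 at the Hoxa6-Hoxa7 region in lists of equal length.

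The number of Hoxa regions per list was 16, 21 and 9 in proximal WENR-plus, 11, 9 and 9 in proximal WENR-minus, 8, 15 and 13 in distal WENR-plus and 14, 13 and 12 in distal WENR-minus lists. In WENR-minus medium every distal list held more Hoxa regions than any proximal list, although the proximal lists were mostly longer. The two-sided exact permutation test gave p = 0.1 there (0.4 after adjustment over 4 comparisons), the smallest that 3 against 3 allows, so this design could not pass 0.05. The other 3 comparisons of the count gave an exact p of 0.4, 0.4 and 0.9.

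The other Hox clusters were taken by the same rule. Hoxb had 19 regions, Hoxc 11 and Hoxd 4. The distal lists held a median of 3.5 Hoxb regions against 12.0 in the proximal lists, 5.5 Hoxc regions against 7.5 and 1.0 Hoxd region against 3.0, whereas Hoxa gave 13.0 distal against 10 proximal. The difference between clusters was not tested.

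**Figure D4:**
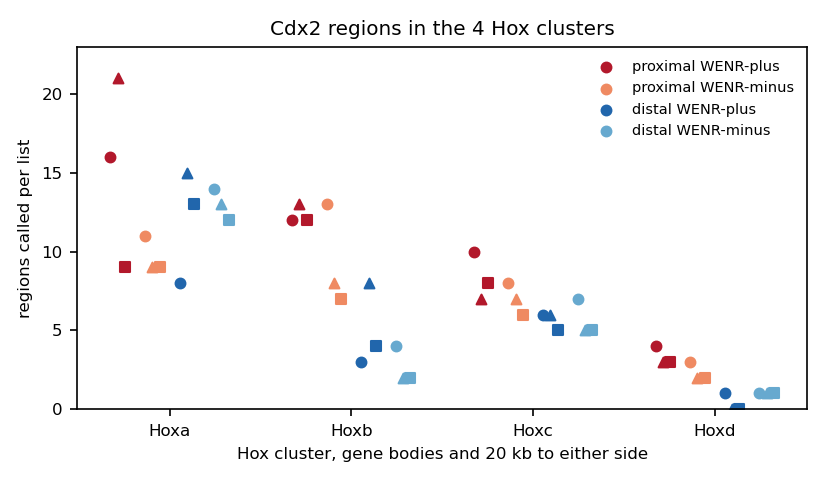
Number of regions called per list (linear axis from 0) in the Hoxa, Hoxb, Hoxc and Hoxd clusters, by group and with circles, triangles and squares for replicates 1, 2 and 3. Distal points lie between 8 and 15 for Hoxa and between 2 and 8 for Hoxb.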

How the data were processed

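The members and gene lists were chosen with earlier results of these data known. With versions from the submitters' processing notes (the supplement names other versions of Bowtie2 and SAMtools), reads were trimmed by the authors (Trimmomatic 0.39), placed on mm10 (Bowtie2 2.4.5) and freed of duplicates (SAMtools 1.13), and MACS2 2.2.7.1 called peaks in each library with its own input as control. The deposited lists hold a score, the fold enrichment (a ratio to the local background), the −log10 p and the −log10 q of each summit, all made by the authors. The 12 input samples were not analysed here. The lists themselves hold no read totals, and the depths that the study's supplement states were not used, so no counting interval is given.

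Peaks on the assembled nuclear chromosomes were joined into 1 region wherever they shared 1 bp or more. The largest fold of a list in a region was used. Calls were compared by Fisher's exact test over regions called in at least 2 lists, and folds with limma 3.58.1 in R 4.3.3 (trend, median-centred log2), both with Benjamini-Hochberg adjustment. Both tests were checked on simulated data. Regions named in the text were those called in at least 6 lists, at most 12 by number of lists and percentile, and those called in all 3 lists of 1 group and none of the compared group. The groups were taken from the labels, which number 3 biological replicates in each. The organoids came from 3 mice, and which number belongs to which mouse is not stated in the sources used here. Deviations of same-numbered lists from their group means correlated from 0.117 to 0.570 between the proximal media, all over 0.1. The numbers were taken to pair these lists, from the data alone. For replicate 1 this pairing is weak, since each of its proximal lists correlated at 0.183 with a list of replicate 2 and at 0.117 with the other. In each of the other 3 comparisons 1 of 3 pairs was under 0.1. The 2 media of a site may come from the same culture, and Fisher's p-values are then too small. Alternatives were a stricter q-value (−log10 q of at least 5), lists of equal length, another overlap and window, other scalings of the fold, a replicate block and each replicate left out. The balance between distal and proximal lists, the per-list permutation test and the non-overlap counts were added after the data were seen. A planned list of other genes is not reported here.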

Additional observations from a re-analysis of the deposited data

How the results depend on the processing

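The number of Hoxa regions was 15 in lists of equal length, where 2 were called in all 12 lists and 0 in all proximal and no distal lists. With a −log10 q of at least 5 these last counts were also 2 and 0. The WENR-plus difference in Hoxa regions per list, 3.33 (proximal minus distal), turned to -3.33 in lists of equal length and ran from 1 without replicate 1 to 7 without replicate 3. The proximal difference between media, 5.67, was 1.33 in lists of equal length and ran from 2.5 without replicate 2 to 8.5 without replicate 3. The WENR-minus difference between colon sites (proximal minus distal) was -3.33, and -2 with the stricter q and -1.67 with gene bodies only. The distal difference between media, -1, was 2 in lists of equal length and between -2.5 and 1.5 with 1 replicate left out. The calls over all regions moved with the setting. Between colon sites, WENR-plus lists gave 365 calls with a replicate block, 0 with the logit of the percentile, 346 without centring, 1 after quantile normalisation and 0 to 231 with 1 replicate left out, where the main count was 81. WENR-minus lists gave 295, 16, 346, 64 and 0 to 255 in that order, where the main count was 114. Between media the block gave 54 calls in proximal and 37 in distal organoids, and the distal count of 1 became 3 without centring, 0 with the stricter q and 0 to 6 with 1 replicate left out. The number of Hoxa regions called stayed at 0 in every alternative but 1, the WENR-plus comparison without replicate 3 (range 0 to 1), and the cause was not tested. The block changed no Hoxa call. Same-numbered lists correlated from -0.0098 to 0.570 in their deviations from the group means, over 0.1 in 13 of 18 pairs, and in 22 of 36 settings a list correlated best with its own number.

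Of 169 alternatives to 22 log2 fold differences at Hoxa regions, 152 kept their direction and side of the threshold and 17 turned their direction, none with an adjusted p under 0.05. Between sites in WENR-plus medium, the Hoxa4-Hoxa5 region gave -0.98 (logit) and -0.22 (quantile), the Hoxa4 region 0.24 and the Hoxa7 region 0.13 without centring. In WENR-minus medium the Hoxa4 region gave 0.33 (logit) and 0.27 (no centring), and the Hoxa13 flank region 0.058 and 0.19. Between media in proximal organoids the Hoxa13 flank region gave 0.13 without centring. With 1 replicate left out, the differences that turned ran between sites from -0.65 to 0.21 at the Hoxa7 region with the factors, and without the factors from -0.39 to 0.35 at the Hoxa4 region and from -0.19 to 0.10 at the Hoxa13 flank region. Between media they ran in proximal organoids from -0.070 to 0.20 at the Hoxa4-Hoxa5 region, from -0.12 to 0.31 at the Hoxa7 region and from -0.34 to 0.24 at the Hoxa13 flank region, and in distal organoids from -0.47 to 0.16 at the Hoxa7 region. The 7 Hoxa regions with more distal lists were 6 in lists of equal length and 6 to 7 with 1 replicate left out. Without a read count, a call missing from a short list and a weak peak could not be told apart.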

Other observations

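Genes around the cluster were counted by the same rule. Evx1, an even-skipped homeobox gene next to Hoxa13, had 2 regions, and Evx2, its counterpart beside the Hoxd cluster, had 0. Of the flanking genes Skap2 had 6 regions and Hibadh had 8, and none of those was called in all 12 lists. Per 100 kb the Hoxa window held 18.8 regions, Hoxb 10.6, Hoxc 7.06 and Hoxd 2.92.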
